A study of Rattus norvegicus with 100 samples.

Results

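The genes of the mitochondrial ribosome and of the protein import channels were followed in the uterus and pituitary gland of immature female rats given ethinyl estradiol (EE), a synthetic oestrogen. They were taken as every gene whose symbol begins with Mrpl or Mrps (large and small subunit of the mitochondrial ribosome), Tomm (translocase of the outer membrane, TOM) or Timm (translocases of the inner membrane, TIM). A probe set was kept when it matched a single gene and had a value on at least 35 of the 70 uterus arrays or 15 of the 30 pituitary arrays. Of 109 probe sets with such symbols, 102 were kept, and they covered 91 of 94 genes among the 10411 genes on the array. These were 44 large subunit genes, 26 small subunit genes, 8 Tomm genes, 4 genes of the TIM23 complex, 8 genes of the TIM22 complex and the small Tim chaperones, and Timmdc1, which is named like a translocase but assists respiratory complex I. Mrpl14, Timm44 and Tomm40l had no probe set that met the rule, and the probe set of Timm23 also matched 2 near copies, so no value is given for it.

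The samples came from a uterotrophic assay, a standard test that detects oestrogens by the growth they cause in the uterus of immature rats. Affymetrix RAE230A arrays of uterus came from control and EE rats at 2, 4, 8, 24, 28, 48 and 72 h, with 5 arrays per group. Pituitary arrays covered 4, 8, 24, 48 and 72 h, with 3 arrays per group. The labels name no strain, genotype or age beyond immature. The dose, route and schedule of EE, the vehicle of the controls, and whether each array was a separate animal are not stated in the sources used here. The p-values therefore measure the spread between these arrays, which may in part be technical.

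Mitochondria carry a small genome that encodes core subunits of the respiratory chain, and a ribosome of their own translates it. All proteins of that ribosome are encoded in the nucleus, made in the cytosol and imported. Precursors enter through the TOM complex, and those with a presequence pass on through TIM23 into the matrix. Carrier proteins of the inner membrane are instead escorted by hexamers of small Tim proteins to TIM22. In the uterus, oestrogen is known to bring on protein synthesis, cell growth and division, processes with a high demand for mitochondrial output.

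Tissue markers were checked against the labels. Myh11, Des, Actg2, Hoxa10 and Hoxa11 had values on all 35 control uterus arrays, and Prl, Gh1, Cga, Fshb and Pou1f1 had none there. All 15 control pituitary arrays had values for Prl, Gh1, Cga, Fshb and Pou1f1 and 0 had one for Hoxa10 or Hoxa11, while Pomc, the corticotroph hormone precursor, had a value on 1 array. Other listed markers did not separate the tissues so: Krt18 had a higher median in pituitary (355) than in uterus (230), and the pituitary hormone genes Tshb and Lhb had values on 30 and 24 control uterus arrays, with medians of 13.7 and 48 there. Between 9318 and 10677 probe sets had a value on an array, and array median intensities ran from 94.6 to 108 for uterus and from 103 to 110 for pituitary. Of the kept probe sets, 91 had a value on all 100 arrays.

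In the uterus, EE raised a large share of these genes within hours, and the rise was broadest at 8 h. Differences are EE minus control means of log2(intensity + 30.4), and a gene was called at an adjusted p under 0.05 in a limma test over all genes with enough values. At 2 h 6 of 89 tested genes rose and 0 fell, when 4.03% of all genes rose and 2.36% fell, and 2 genes were called when the fit held these 2 groups alone. At 4 h 29 of 88 rose and 18 fell, against 23.6% and 34.4% of all genes. At 8 h 63 of 88 rose and 8 fell, against 28.8% and 35.4% of all genes. The median difference of these genes was 0.35 at 8 h, while that of all genes was -0.04.

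The excess of rises lasted beyond 8 h and then narrowed. At 24 h 55 of 88 genes rose and 1 fell (24.9% and 34.4% of all genes), and at 28 h 57 rose and 3 fell (28.5% and 34.3% of all genes). At 48 h 40 of 88 rose and 9 fell, against 24.2% and 32.9% of all genes. By 72 h 27 of 87 rose and 17 fell, against 23.4% and 36.8% of all genes. The median difference went from 0.24 at 24 h to 0.27 at 28 h, 0.16 at 48 h and 0.04 at 72 h. With each array centred on its own median, the 72 h split was 30 rises and 12 falls. Counted in either direction, 6.39% of all genes passed at 2 h, 58% at 4 h, 64.2% at 8 h, 59.3% at 24 h, 62.8% at 28 h, 57% at 48 h and 60.2% at 72 h.

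**Figure D1:**
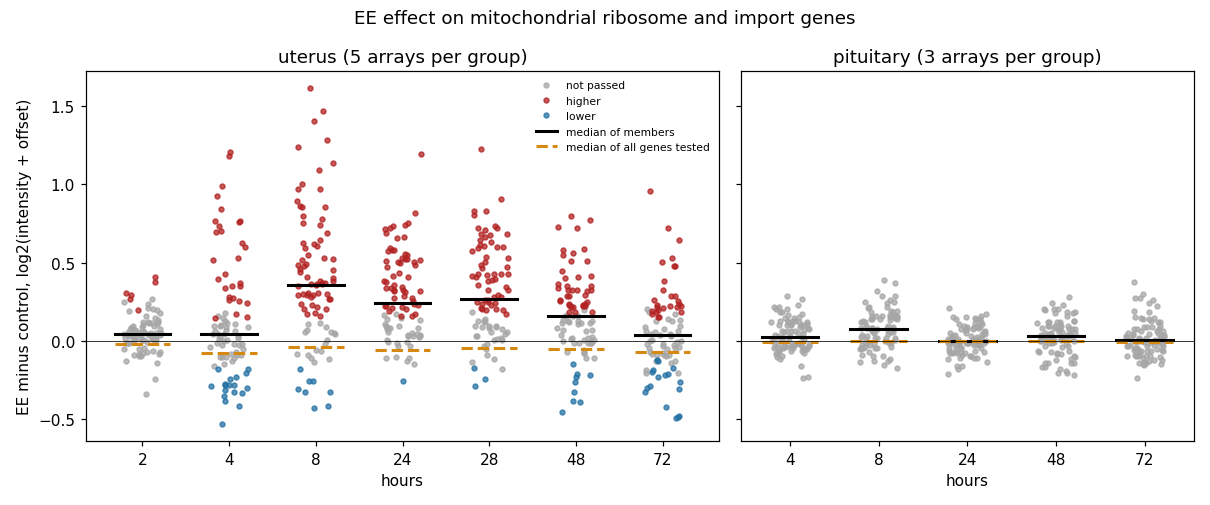
EE minus control difference on the log2(intensity + 30.4) scale (vertical axis) for each mitochondrial ribosome and import gene (points) at each time in hours (horizontal axis), in uterus (left) and pituitary (right). Red and blue points passed as higher or lower, grey points did not, and lines give the median of these genes (black) and of all genes tested (orange, dashed); the uterus median peaks at 0.35 at 8 h, and no pituitary point is coloured.

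**Figure D2:**
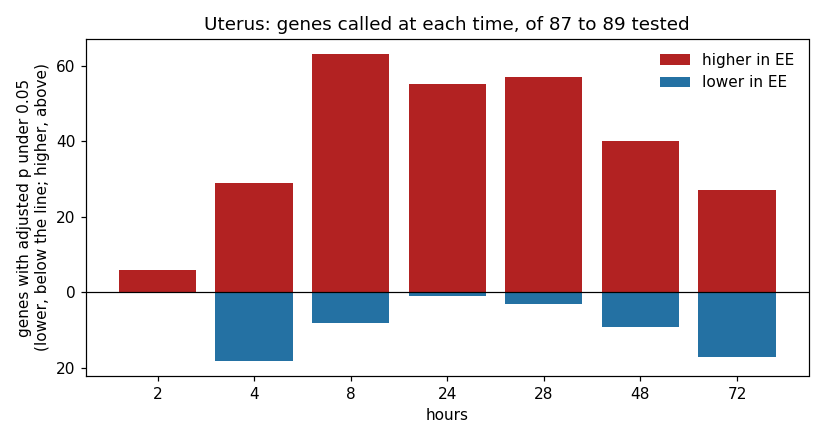
Number of mitochondrial ribosome and import genes higher (above the line) and lower (below the line) with EE at an adjusted p under 0.05 in uterus, by time in hours. The count of rises climbs from 6 at 2 h to 63 at 8 h and is 27 at 72 h, when 17 genes are lower.

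Separation between arrays gave a similar order of times. At 8 h all 5 EE arrays lay above all 5 control arrays for 53 genes and below them for 5, when 23.6% and 27.8% of all genes were so separated. At 72 h EE arrays lay wholly above for 18 genes and wholly below for 7, against 16.4% and 24.3% of all genes. Wholly above were 3 genes at 2 h (3.75% of all genes), 27 at 4 h (17.6%), 40 at 24 h (18.2%), 47 at 28 h (21.6%) and 31 at 48 h (17.5%). Wholly below were 1 at 2 h (2.04%), 10 at 4 h (23.9%), 1 at 24 h (24.3%), 1 at 28 h (24.6%) and 4 at 48 h (22.8%). Over the median gene, each EE array at 8 h stood 0.25 to 0.38 above the control mean, and the control arrays spread from -0.06 to 0.06. Every EE array at 8 h was therefore above every control array in the level of the set as a whole.

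An EE effect at some time was called for 79 of the 86 genes tested at all 7 times, which is close to the 91.7% of all genes called in that test. The effect differed between times for 75 of 86, when it did for 81.6% of all genes. Of the 86 genes, 53 rose at some times and fell at none, 10 fell and never rose, 22 did both, and 1 was never called. The highest difference, called or not, fell at 8 h for 39 genes, at 24 h for 21, at 28 h for 11, at 48 h for 7, and at 2, 4 or 72 h for the other 8. Genes never called higher are in that tally, such as Mrpl40 and Mrpl48 at 8 h. The counts of patterns and of highest differences, and the list that follows, have no share of all genes beside them and only describe this set. These 10 genes were higher at each time from 4 to 72 h: Mrpl17, Mrpl27, Mrpl33, Mrpl35, Mrpl54, Mrps6, Mrps22, Mrps34, Timm22 and Tomm5. Of these, Mrpl33, Mrpl35, Mrps22 and Timm22 were not checked gene by gene under the alternatives. Among those checked, the 72 h calls of Mrps34 and Tomm5 did not hold under every alternative. A second Timm22 probe set passed as lower at 48 and 72 h (-0.18 and -0.19).

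The genes did not share a single time course. From 8 to 24 h differences moved in both directions, for 44 of 88 genes, which is near the 46.2% of all genes. Between 4 and 8 h the EE minus control difference, taken with its sign, moved up for 38 of 87 genes and down for 0. It moved up for 9.22% and down for 10.3% of all genes, and a fall that faded counts as a move up. In either direction 19.5% of all genes passed that step, 46.2% the next and 8.25% that from 24 to 28 h. Between 8 and 24 h the difference moved down for 27 of 88 and up for 17, against 22.6% and 23.6% of all genes. That split depended on the scaling, with 22 down and 21 up when arrays were centred and 20 and 21 after quantile normalization. The 27 genes that moved down are called early here and the 17 that moved up are called late, names that only restate this test. Late genes thus include Mrpl2, Mrpl36 and Mrps33, which passed as lower at 2 or 3 times and as higher at none. Early genes include Mrpl40, which on the probe set used did not pass at 8 h (0.06) and was lower at 24 h (-0.26).

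The early genes had a median difference of 0.52 at 4 h and 0.78 at 8 h, then 0.16 at 24 h, 0.41 at 28 h, 0.01 at 48 h and -0.08 at 72 h. They held 11 small subunit genes, 6 large subunit genes, 5 small Tim or TIM22 genes, 4 Tomm genes and Timm17a. The late genes had medians of -0.28 at 4 h and -0.11 at 8 h, then 0.32 at 24 h, 0.25 at 28 h, 0.22 at 48 h and 0.14 at 72 h. In both groups the change from 8 to 24 h follows from how the genes were chosen and is no separate result. The late group held 9 large subunit genes, 7 small subunit genes and Timm13. At 4 h 10 of the 17 late genes passed as lower and 0 as higher, against 34.4% and 23.6% of all genes. A choice by upward change from 8 to 24 h favours genes that begin below control.

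**Figure D3:**
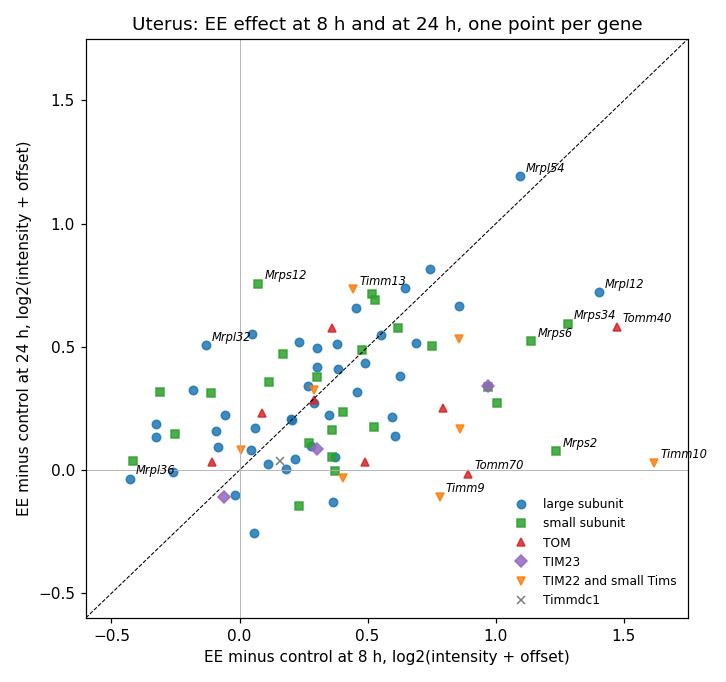
EE minus control difference in uterus at 8 h (horizontal axis) and 24 h (vertical axis), both on the log2(intensity + 30.4) scale, with 1 point per gene and a dashed line of equal effect. Timm10, Mrps2, Tomm70 and Timm9 lie far right of the line and near 0 on the 24 h axis, Mrps12 and Mrpl32 lie above it, and Mrpl54 lies near it.

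Promoter sequence was read for the genes in RefSeq's rat table (build GRCr8), as 250 bases before to 50 bases after the gene's start, and 75 of the 91 genes had an entry. A set of 5 exact motifs was searched on both strands. The ETS core CCGGAAG, which the nuclear respiratory factor GABP can bind, was in 26 of 75 promoters (34.7%) and in 9.22% of all 27457 promoters. The YY1 motif AAGATGGC was in 15 (20%) against 3.44%, and the NRF1 palindrome was in 5 (6.67%) against 0.932%. The E-box CACGTG, a site type of MYC and related factors, was in 8 (10.7%) against 6.65%. The full oestrogen response element was in 0 of 75 and in 0.0255% of all promoters, a share too low for 0 of 75 to count as a lack. The 27457 promoters were those of every gene in the promoter table, not only of genes on the array or with values here.

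By time course the E-box was in 4 of 22 early and 1 of 13 late promoters. It was in 3 of 38 promoters of genes whose step from 8 to 24 h did not pass. The ETS core was in 8 of 22, 5 of 13 and 12 of 38 of the same groups. These are counts of letters in a window, and binding was not measured. The 150 bases before the start are shown for 3 early genes, Timm10, Tomm70 and Mrps18b, for the late gene Mrpl32, and for Mrpl17, which stayed high from 4 to 72 h. Capitals mark the E-box, ETS core and NRF1 motif on either strand, and in Timm10 a pair of ETS cores overlaps as a palindrome.

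Timm10 (chr3:90314989-90315138, plus strand): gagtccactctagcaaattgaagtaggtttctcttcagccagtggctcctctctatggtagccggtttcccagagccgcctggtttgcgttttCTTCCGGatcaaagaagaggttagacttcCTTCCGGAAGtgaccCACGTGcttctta
Tomm70 (chr11:56886277-56886426, minus strand): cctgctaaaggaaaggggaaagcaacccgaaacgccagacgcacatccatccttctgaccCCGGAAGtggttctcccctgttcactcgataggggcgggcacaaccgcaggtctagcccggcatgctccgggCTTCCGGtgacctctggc
Mrps18b (chr20:2842856-2843005, plus strand): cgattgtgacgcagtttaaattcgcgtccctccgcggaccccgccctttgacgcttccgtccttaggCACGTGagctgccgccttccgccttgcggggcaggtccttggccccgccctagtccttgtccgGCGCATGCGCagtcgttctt
Mrpl32 (chr17:55260501-55260650, plus strand): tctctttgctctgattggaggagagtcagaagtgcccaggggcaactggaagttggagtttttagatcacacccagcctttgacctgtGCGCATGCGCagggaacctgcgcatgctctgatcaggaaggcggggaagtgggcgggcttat
Mrpl17 (chr1:169575700-169575849, minus strand): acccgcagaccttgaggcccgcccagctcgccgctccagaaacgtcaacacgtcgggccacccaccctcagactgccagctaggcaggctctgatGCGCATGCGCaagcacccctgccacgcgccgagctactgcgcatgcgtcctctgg

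In Timm10 the E-box begins 13 bases before the start and ETS cores begin 57, 28 and 25 bases before it. Mrps18b holds both an E-box, 83 bases before the start, and an NRF1 motif, 20 bases before it, and an ETS core that begins 3 bases before the start and runs past the bases shown. Mrpl32 and Mrpl17, with unlike time courses, each hold an NRF1 motif, 62 and 55 bases before the start. Tomm70 holds 2 ETS cores, 90 and 18 bases before its start, and no E-box in the window.

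Among the small Tim chaperones and TIM22 genes, 7 of 8 rose at 8 h and the median difference was 0.61, the highest of the role groups at that time. Timm10, which joins Timm9 in the hexamer that carries inner membrane precursors, had the largest difference of all these genes. At 8 h its control arrays read 109, 108, 100, 130 and 97.9 and its EE arrays 381, 427, 378, 379 and 418. No control array came near the EE arrays, and the difference was 1.62 (SE 0.08, adjusted p = 1.8e-25). At 4 h the control arrays had read 120, 131, 138, 125 and 103 and the EE arrays 327, 334, 326, 293 and 343, so the gene was already separated then (1.21, SE 0.08, adjusted p = 2.23e-19).

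At 24 h the Timm10 groups did not differ beyond their spread. Control arrays read 140, 131, 122, 130 and 117 and EE arrays 127, 127, 142, 130 and 130, with full overlap (0.03, SE 0.08, adjusted p = 0.787). At 28 h the groups were apart again, with control arrays at 122, 107, 115, 150 and 116 and EE arrays at 235, 193, 212, 191 and 236 (0.68, adjusted p = 2.77e-10). The increase from 24 to 28 h was itself significant (0.65, SE 0.12, adjusted p = 8.17e-05). At 48 h the direction had turned, with control arrays at 156, 157, 136, 193 and 151 and EE arrays wholly below, at 94.2, 89.9, 108, 126 and 121 (-0.45, SE 0.08, adjusted p = 6.37e-06). It was the same at 72 h, with control arrays at 206, 194, 176, 181 and 152 and EE arrays lower, at 111, 122, 99.7, 130 and 143 (-0.49, adjusted p = 1.3e-06).

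Timm9, the partner of Timm10 in the same hexamer, followed a like course. At 8 h its control arrays read 71.2, 78.7, 85.5, 93.8 and 76.8 and its EE arrays 173, 149, 161, 179 and 145 (0.78, SE 0.07, adjusted p = 1.36e-14). At 72 h the control arrays read 103, 113, 109, 109 and 96.2 and the EE arrays 70.7, 66.8, 62.1, 72.8 and 64.1. Groups were separated both times, above control at 8 h and below it at 72 h (-0.48, SE 0.07, adjusted p = 7.71e-08). At 24 h the Timm9 difference was -0.11 and did not pass.

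The second small Tim hexamer is built from Timm8a1 or its kin with Timm13, and its members did not move together. Timm8a1 read 30.9, 36.6, 34.3, 27.7 and 34.7 in control and 103, 97.5, 65.5, 83.2 and 75.5 with EE at 8 h (0.86, SE 0.09, adjusted p = 3.3e-13). Timm8b, a close relative of it, read 173, 204, 202, 185 and 171 in control and 372, 343, 374, 373 and 349 with EE at 8 h (0.85, SE 0.08, adjusted p = 8.79e-15). Both were wholly separated at that time. Timm13 was among the late genes, with differences of 0.01 at 4 h, 0.44 at 8 h and 0.73 at 24 h. At 24 h its control arrays read 282, 223, 244, 254 and 256 and its EE arrays 462, 440, 458, 412 and 422, with no overlap (adjusted p = 3.05e-14).

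In the TIM22 complex itself the changes were smaller. Timm22, the membrane channel, was 0.29 higher at 8 h and 0.18 higher at 72 h, but a second probe set of the gene read -0.10 and -0.19 at those times, and the latter passed as lower. Timm29, a subunit found in animals, was 0.43 higher at 4 h and lower at 72 h (-0.31). Timm10b did not pass at any time, with differences between -0.15 and 0.08.

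Among the Tomm genes 6 of 8 rose at 8 h and 0 fell. Tomm40, the pore through which nearly all imported proteins cross the outer membrane, read 67.2, 69.4, 65.4, 78.6 and 58.7 in control and 252, 257, 228, 250 and 223 with EE at 8 h. The EE arrays were all above the control arrays, by 1.47 (SE 0.11, adjusted p = 4.51e-19). Its effect had fallen to 0.58 at 24 h, a significant drop (-0.89, SE 0.15, adjusted p = 1.5e-06), and was -0.01 at 48 h.

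Tomm70, the receptor that takes carrier precursors from cytosolic chaperones, read 243, 212, 251, 239 and 232 in control and 454, 478, 460, 446 and 474 with EE at 8 h (0.89, SE 0.05, adjusted p = 3.27e-23). At 72 h its control arrays read 265, 260, 270, 260 and 227 and its EE arrays 191, 177, 186, 198 and 168. The groups were separated at both times but in opposite directions (-0.42 at 72 h, SE 0.05, adjusted p = 3.46e-10). Like Timm10, Tomm70 did not pass at 24 h (-0.01) and was higher at 28 h (0.43), and the gain passed (0.45, SE 0.07, adjusted p = 1.28e-05).

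The other Tomm genes moved less or later. Tomm5, a small subunit of the pore complex, read 159, 193, 187, 184 and 169 in control and 325, 360, 324, 331 and 319 with EE at 8 h, without overlap (0.80, SE 0.07, adjusted p = 4e-15). Tomm6, another small subunit, had its highest difference at 28 h, with control arrays at 327, 304, 315, 330 and 339 and EE arrays at 530, 441, 470, 553 and 542 (0.60, adjusted p = 1.21e-10). Tomm22, the central receptor, was higher by 0.28 to 0.35 from 8 to 48 h. Tomm20, the presequence receptor, was higher by 0.53 at 4 h and 0.49 at 8 h, but its groups overlapped at 8 h. Tomm34, a cytosolic co-chaperone rather than a pore subunit, passed once, as lower at 48 h (-0.23), and Tomm7 was called at 24 and 48 h, by 0.23 and 0.19.

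Of the 4 TIM23 genes, 3 had enough values to be tested. Timm17a, a core membrane subunit of the presequence channel, read 141, 120, 135, 153 and 138 in control and 283, 303, 302, 297 and 304 with EE at 8 h. Its groups were far apart (0.97, SE 0.06, adjusted p = 2.41e-23), and its effect was 0.34 at 24 h, 0.67 at 28 h and -0.01 at 48 h. Timm50, the presequence receptor of this complex, was called at 8 h only, by 0.30. Timm21, which links the channel to respiratory chain subunits, went down: at 72 h control arrays read 105, 98.8, 129, 94.1 and 88.8 and EE arrays 66.7, 56.1, 68.4, 67.9 and 60.9 (-0.50, SE 0.09, adjusted p = 3.25e-06). Timm17b, the alternative form of Timm17a, had values on 41 uterus arrays and could be tested at no time.

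**Figure D4:**
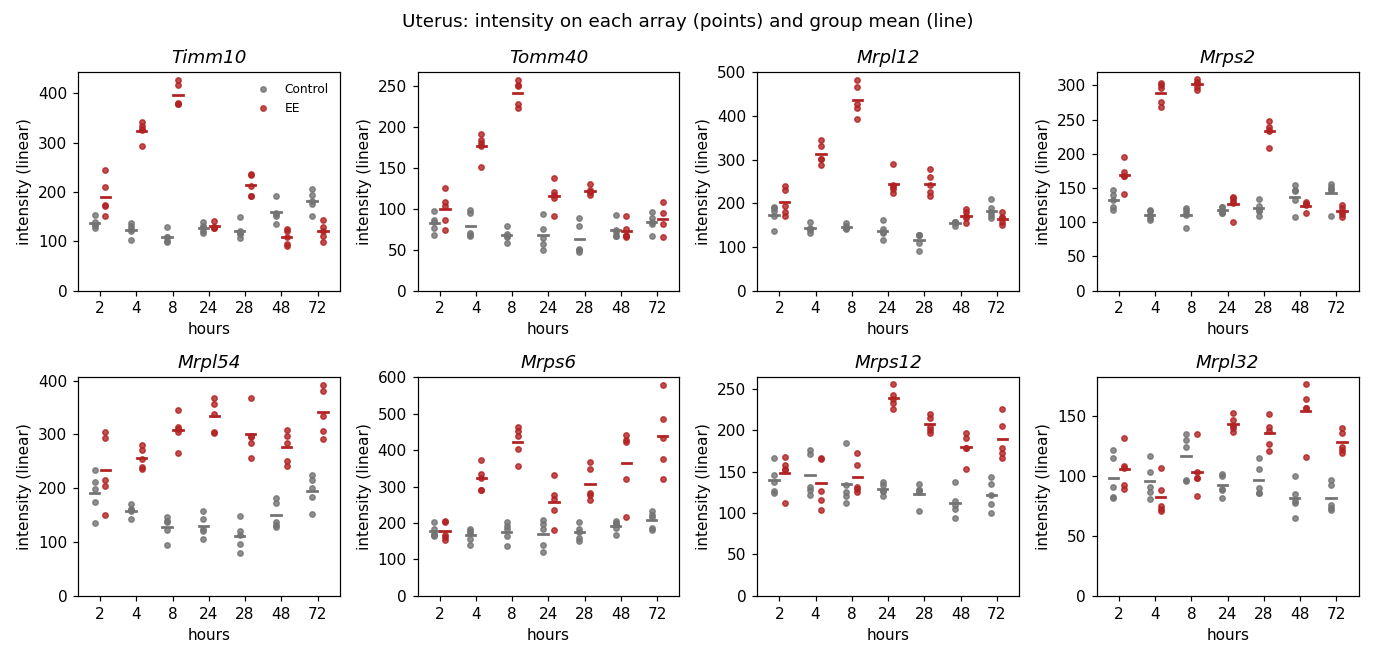
Linear intensity (vertical axis) on each uterus array for 8 genes at each time in hours (horizontal axis), with control in grey, EE in red and a line at each group mean. Timm10, Tomm40, Mrpl12 and Mrps2 peak with EE at 4 or 8 h and are close to control at 72 h or below it, Mrpl54 and Mrps6 stay above control from 4 h, and Mrps12 and Mrpl32 separate from 24 h.

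Of the large subunit genes, 28 of 43 rose at 8 h and 5 fell, with a median of 0.28. Mrpl12, the stalk protein at which translation factors dock, read 140, 154, 147, 144 and 144 in control and 392, 481, 426, 465 and 419 with EE at 8 h. The control arrays were tightly grouped and the EE arrays stood 1.40 above them (SE 0.08, adjusted p = 1.83e-24). Its effect was 0.72 at 24 h and 0.91 at 28 h. By 72 h control arrays at 179, 166, 210, 189 and 172 and EE arrays at 169, 167, 157, 150 and 180 overlapped (-0.13, adjusted p = 0.141).

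Mrpl54 and Mrpl17 kept their difference instead. Mrpl54 had its highest difference at 28 h, with control arrays at 114, 79.7, 95.9, 120 and 149 and EE arrays at 295, 257, 284, 297 and 367 (1.23, SE 0.12, adjusted p = 1.04e-13), and it was 0.72 higher at 72 h. Mrpl17, which lies near the exit of the ribosome's peptide tunnel, read 511, 521, 581, 501 and 524 in control and 920, 1002, 1015, 938 and 1015 with EE at 8 h. Every EE array was well above control (0.85, SE 0.07, adjusted p = 4.35e-18), and the difference lay between 0.65 and 0.73 from 24 to 72 h. Mrpl27, at the peptide-forming centre, read 167, 144, 144, 189 and 150 in control and 302, 296, 296, 290 and 337 with EE at 28 h (0.83, adjusted p = 2.29e-12).

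Mrpl32, a late gene of the large subunit, separated from 24 h. At 4 h its control arrays read 80.5, 86.8, 90.6, 117 and 103 and its EE arrays 75, 72.3, 107, 88.6 and 70.7, overlapping (-0.16, adjusted p = 0.158). At 48 h the control arrays read 100, 77.8, 79.4, 85.4 and 65 and the EE arrays 116, 164, 157, 157 and 177, all above control (0.72, SE 0.10, adjusted p = 4.45e-09). The upward change of its difference from 8 to 24 h was 0.64 (SE 0.14, adjusted p = 9.85e-05).

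Some ribosomal genes were lower early. Mrpl34 read 160, 166, 181, 143 and 168 in control and 99.4, 97.4, 117, 88.2 and 118 with EE at 4 h, with EE below on every array (-0.53, SE 0.08, adjusted p = 4.09e-08). Mrpl36 read 130, 140, 153, 146 and 138 in control and 108, 101, 101, 90.9 and 86.3 with EE at 8 h, again with no overlap (-0.43, SE 0.05, adjusted p = 5.92e-11). Mrpl2 was lower at 4 and 8 h (-0.28 and -0.33), and its 4 h call did not hold under every alternative. Mrpl10 was lower at 4 h (-0.33) and higher at 24 h (0.22), and Mrpl57 was lower at 4 h (-0.42) and higher at 48 h (0.45) with overlapping groups both times. Mrpl40 was called lower at 4, 24, 28, 48 and 72 h, by differences from -0.17 to -0.27. A second Mrpl40 probe set passed as higher at 24, 28 and 48 h, by 0.33, 0.48 and 0.39, so the gene's direction is not settled at those times.

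Of the small subunit genes, 19 of 25 rose at 8 h and 3 fell, with a median of 0.37. Mrps2, on the back of the subunit's body and head, had one of the earliest rises and passed at 2 h (0.29). At 4 h its control arrays read 106, 110, 103, 118 and 117 and its EE arrays 276, 301, 268, 296 and 303, far apart (1.18, SE 0.07, adjusted p = 7.27e-23). At 24 h the control arrays read 123, 122, 114, 113 and 117 and the EE arrays 136, 100, 137, 128 and 131, overlapping (0.08, adjusted p = 0.346). That overlap came from array 44, at 100, and the other EE arrays lay above every control array. At 28 h they were apart again, at 117, 134, 118, 124 and 109 in control and 248, 235, 234, 208 and 239 with EE (0.80, SE 0.07, adjusted p = 9.35e-16).

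The second separation of Mrps2 was an increase of 0.73 over its 24 h effect (SE 0.10, adjusted p = 9.49e-08). In all the difference moved up for 6 of 87 genes and down for 0 from 24 to 28 h, when 5.1% of all genes moved up and 3.15% down. Beside Mrps2, Tomm70 and Timm10 these were Timm17a, Mrps30 and Mrps18b. Of these Mrps18b lost its call (0.30, limma adjusted p = 0.048) under each other scaling and the smaller offset, and Mrps30 was not checked.

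Mrps34 and Mrps6 rose and remained higher. Mrps34, a protein found in mitochondrial but not bacterial ribosomes, read 68.1, 79.1, 63.1, 78.7 and 69.2 in control and 229, 216, 218, 234 and 191 with EE at 8 h (1.28, SE 0.09, adjusted p = 3.12e-20), and was 0.21 higher at 72 h. Mrps6, a protein of the subunit's platform, read 136, 203, 193, 185 and 164 in control and 404, 357, 439, 463 and 453 with EE at 8 h. Its difference of 1.14 at 8 h (SE 0.13, adjusted p = 1.34e-11) was followed by one of 0.95 at 72 h, when control arrays read 182, 222, 218, 186 and 234 and EE arrays 376, 485, 435, 321 and 578. The EE arrays of Mrps6 at 72 h spread widely, yet none reached down to control.

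Mrps12, at the decoding centre where codon and tRNA are matched, rose late. At 8 h its control arrays read 112, 126, 185, 121 and 134 and its EE arrays 158, 129, 125, 173 and 131, overlapping (0.07, adjusted p = 0.54). At 24 h they read 134, 137, 121, 127 and 127 in control and 233, 226, 238, 256 and 242 with EE, with a wide gap (0.76, SE 0.10, adjusted p = 1.78e-09). The change from 8 to 24 h passed (0.68, SE 0.14, adjusted p = 5.04e-05). Mrps16 read 149, 129, 147, 156 and 132 in control and 291, 190, 272, 234 and 270 with EE at 24 h (0.69, adjusted p = 4.92e-12), and had already been 0.53 higher at 8 h.

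Mrps33 and Mrps23 were lower at 4 and 8 h. At 8 h Mrps33 read 145, 227, 182, 181 and 156 in control and 127, 118, 126, 140 and 114 with EE (-0.42, SE 0.10, adjusted p = 0.000208). Its highest EE array lay just under its lowest control array. Mrps17 was also lower at 4 and 8 h (-0.35 and -0.25). Mrps23 went from -0.31 at 8 h to 0.32 at 24 h, and the turn passed (0.63, SE 0.09, adjusted p = 6.43e-08).

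Other gene groups are given for comparison. The 79 respiratory chain and ATP synthase genes had 42 rises and 10 falls among 78 tested at 8 h (28.8% and 35.4% of all genes). At 24 h they had 64 rises and 2 falls of 79 (24.9% and 34.4% of all genes). Their median difference was 0.19 at 8 h and 0.45 at 24 h. Between these times the difference moved up for 39 of 78 genes and down for 2 (23.6% and 22.6% of all genes), with a median change of 0.26. Over the ribosome and import genes the median change from 8 to 24 h was -0.03, and 0.01 with centred arrays. The difference between the gene groups was not tested. At 8 h the split of the respiratory chain genes was sensitive to scaling and became 20 rises and 14 falls after quantile normalization. The 37 cytosolic ribosomal protein genes had 4 rises and 0 falls at 8 h and a median of 0.01, and after quantile normalization 2 rises and 7 falls.

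**Figure D5:**
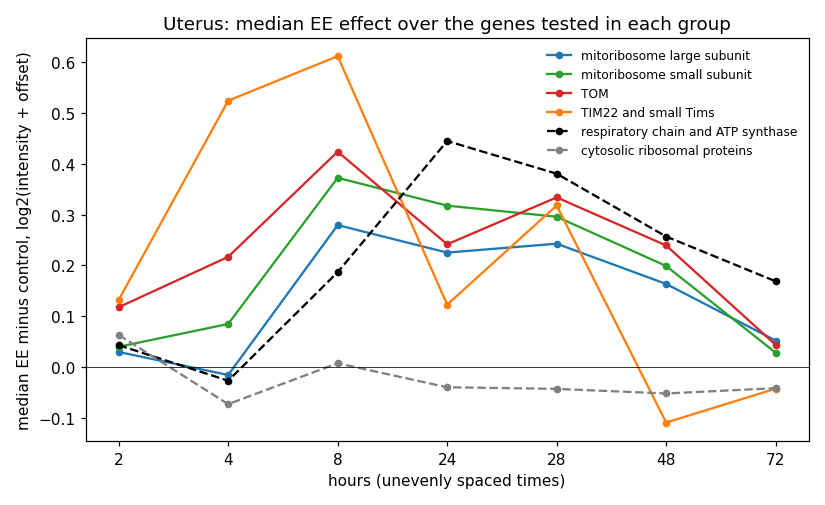
Median EE minus control difference in uterus on the log2(intensity + 30.4) scale (vertical axis) over the genes tested in each group, by time in hours (horizontal axis). The small Tim and TIM22 genes peak at 0.61 at 8 h, both ribosomal subunits and the Tomm genes peak at 8 h, the respiratory chain peaks at 0.45 at 24 h, and cytosolic ribosomal proteins stay near 0.

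Partners of these machines were counted at 8 h from lists drawn up by function. Of 5 further mitoribosomal proteins with unrelated symbols, 4 rose and 0 fell, with Gadd45gip1 at 0.89 (SE 0.07) and Chchd1 at 0.82 (SE 0.11). Of 15 tested import partners and matrix chaperones, 12 rose and 2 fell. Hspd1, the matrix folding chaperone, went from 752 ± 40 in control to 1753 ± 85 with EE (SD, n = 5 each). Oxa1l, which inserts newly made proteins into the inner membrane, is on both this list and that of translation factors, and was lower at 8 h (-0.78, SE 0.08, limma adjusted p = 3.3e-13). Of 11 presequence-processing and quality-control proteases 5 rose and 0 fell, with Pmpca, a presequence-cleaving subunit, at 0.69.

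Translation factors had 4 rises and 2 falls of 9, ribosome assembly factors 4 and 2 of 8, and mitochondrial tRNA synthetases 0 and 1 of 2. Slirp, an RNA-binding protein that steadies mitochondrial messages, was higher by 0.75, and C1qbp, a matrix protein tied to ribosome assembly, by 1.01. Of 8 regulators of the mitochondrial genome 3 rose and 0 fell, and Myc, a transcription factor that drives growth genes, was among them. Myc was higher by 1.16 at 4 h and 0.95 at 8 h and lower at 24 h (-0.26). All 11 tested genes of a list of abundant mitochondrial proteins rose at 8 h, among them Mdh2 (1.11) and Slc25a5 (0.88). Over all these lists the background at 8 h was the same 28.8% higher and 35.4% lower.

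Markers of cell types and RNA quality also moved in these samples, and in whole tissue fewer cells of a type and less RNA per cell cannot be told apart. Of 11 tested luminal epithelium markers 6 rose and 2 fell at 8 h, and 9 rose and 0 fell at 72 h. Their mean log2 level per array was 7.39 to 7.95 in control and 7.91 to 8.04 with EE at 8 h, and 7.43 to 7.58 and 8.73 to 9.13 at 72 h. Macrophage markers had 1 rise and 1 fall of 5 at 8 h and 5 rises of 5 at 72 h, and smooth muscle markers 1 rise and 3 falls of 10 at 8 h. At 8 h the Actb 3' minus 5' probe set difference, which grows as RNA degrades, averaged 0.51 ± 0.11 over the control arrays and 0.22 ± 0.09 over the EE arrays (SD, n = 5). Blank cells made up 38.2% with EE and 34.5% in control. The part of these shifts in the gene differences was not tested.

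Control uteri also varied with time. The control level differed between times for 35 of 87 genes, against 32.6% of all genes. Timm10 had the smallest adjusted p (6.29e-07), with control means from 109 ± 13 at 8 h to 182 ± 20 at 72 h (SD, n = 5). Mrpl12 went from 117 ± 17 at 28 h to 183 ± 17 at 72 h, and Timm13 from 226 ± 23 at 28 h to 319 ± 31 at 2 h. The lower Timm10 level with EE at 72 h was thus read against a control level higher than at 8 h, while its EE mean at 72 h, 121 ± 17, lay near the controls of the first day.

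In the pituitary gland no single comparison called any of these genes. At 4, 8, 24, 48 and 72 h 0 of 88 passed in limma, when 1.48%, 3.57%, 0.102%, 0.322% and 2.66% of all genes did. At an unadjusted p under 0.05 the counts were 10, 15, 4, 8 and 9, when 9.8%, 20.5%, 5.65%, 9.15% and 13.8% of all genes reached it, and no other tool was run. With 1 array left out at a time, 3 of 6 fits at 8 h called some of these genes, up to 4 without EE array 33. With 3 arrays per group a modest change can be missed: differences ranged from -0.24 to 0.39 over all genes and times. At 8 h the median was 0.08, and each EE array stood 0.05 to 0.08 above control over the median gene.

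Timm10 was the pituitary exception in the tests over all times. At 4 h its control arrays read 186, 174 and 166 and its EE arrays 242, 202 and 218, and at 8 h 171, 167 and 193 against 204, 241 and 201. EE arrays lay above control at both times, and the limma adjusted p-values were 0.0812 and 0.0867. At 24 h control read 194, 192 and 191 and EE 178, 156 and 174, with EE below on all arrays. Timm10 was the 1 gene of 88 called for an effect at any time (limma adjusted p = 0.0207, against 6.46% of all genes, and 3 genes without control array 28) and for an effect that differs between times (adjusted p = 0.0445, against 1.09%). Both calls were lost after quantile normalization, and the latter also with the smaller offset, with centred arrays and in 23 of 30 fits that left out 1 array. The control level differed between times for 1 gene of 88, Mrpl42, against 1.61% of all genes.

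The EE effects of the tissues were then compared directly in a model of all 100 arrays. At 8 h the uterus effect exceeded the pituitary effect for 40 of 87 genes and was below it for 7, against 22.5% and 25.4% of all genes. Mrps2 (1.28, SE 0.11, adjusted p = 5.17e-17), Mrpl12 (1.28, SE 0.12, adjusted p = 5.28e-16) and Timm10 (1.37, SE 0.13, adjusted p = 4.76e-15) differed most clearly. At 4 h the counts were 19 and 9 (15.2% and 18.5% of all genes), and at 24 h 35 and 0 (17.9% and 22.3%). At 48 h they were 22 and 3 (15% and 21.3%), and at 72 h 9 and 7 of 86 (14.5% and 24.2%). In either direction the difference passed for 33.8%, 47.9%, 40.1%, 36.3% and 38.7% of all genes from 4 to 72 h. Mrps6 had the smallest adjusted p at 72 h, where its uterus effect exceeded the pituitary effect by 1.19 (SE 0.19, adjusted p = 4.94e-07).

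Levels in the untreated tissues overlapped for most of these genes. Over 25 control uterus and 15 control pituitary arrays at the shared times, the ranges overlapped for 70 of 86 genes with a value on all of them. Pituitary lay wholly above uterus for 12 and uterus above pituitary for 4, against 21.1% and 17% of all genes. Timm8b averaged 458 in pituitary and 200 in uterus, and Mrps14 258 and 114. Mrpl23 was higher in uterus, at 342 against 168. The pituitary values for Timm17a (225 against 140) and Mrps34 (143 against 80.7) were higher than in control uterus, and neither gene passed there with EE. The tissues also differed in RNA measures over all arrays. The Actb 3' minus 5' difference was 0.07 to 1.09 in uterus and 1.23 to 1.86 in pituitary. That of Gapdh was 0.12 to 0.95 in uterus and -0.38 to 0.02 in pituitary. The part of this in the tissue levels was not tested.

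A check on other probe sets of the same genes was possible for 11 probe sets of 9 genes in uterus. Where the used probe set had passed, the other passed in the same direction for 22 values and in the opposite direction for 7. It did not pass for 9 values of like sign and 9 of unlike sign. The 7 were Mrpl40 at 24, 28 and 48 h, Timm22 at 48 and 72 h, Timm8a1 at 48 h and Mrpl52 at 24 h. For Timm8a1 both probe sets rose at 4, 8 and 28 h.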

How the data were processed

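Per the labels, 5 µg of total RNA from each sample was biotin-labelled and hybridised to a rat RAE230A array. The authors deposited 1 table of linear intensity values, 15923 probe sets by 100 arrays, with 37.2% of cells blank. How the intensities were summarised and scaled, and why cells are blank, is not given in the sources used here. A blank was left out, so a gene with blanks was tested on fewer arrays. Probe sets were named from the platform annotation: 12783 had 1 gene, 312 several and 2771 none. Of several probe sets of a gene, that of highest mean among those valued on enough arrays was taken.

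Values were tested as log2(intensity + 30.4), the offset being the 10th percentile of all values, which shrinks the differences of dim genes. A model of group means per tissue was fitted in limma 3.58.1 (R 4.3.3), and p-values were adjusted by Benjamini-Hochberg over all genes tested. A group needed 3 of 5 uterus values or 2 of 3 pituitary values. The scripts were tested on simulated data. Alternatives were an offset of 1, centred arrays, quantile normalization, every probe set, values on every array, fits of 2 groups, a replicate block, and each array left out in turn.

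The text names part of the genes among the 3 smallest adjusted p of a role or a comparison of effects, the 3 largest rises or falls at a uterus time, up to 5 against the main direction, the 2 smallest adjusted p of a partner list, or on a short list of core subunits. Mrpl32, Mrpl33, Mrpl35, Mrps22, Timm8b, Timm10b, Timm22, Timm29, Tomm6, Tomm34, Mrps14, Mrps30 and Mrpl23 fall outside that rule and were chosen after their values were seen. The members and lists were chosen with earlier results of these data known. The number of arrays limits the precision. Array numbers were compared between tissues: for 27 pituitary arrays the correlation with the uterus array of the same number ran from -0.0669 to 0.162, so they were not treated as pairs.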

Additional observations from a re-analysis of the deposited data

Results flagged for a closer look

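In uterus 86 groups of 5 values were examined, for named genes and for the set's median shift in each of 14 groups. In 5 of them, all of single genes, an array stood apart from the other 4, and chance alone marks about 1 group in 20. With EE at 24 h Timm10 read 142 on array 45 (nearest 130) and Mrps2 read 100 on array 44 (nearest 128). Array 44 was not odd for Mrps2 alone. It was also the lowest of its group for Mrpl4 (247, others 337 to 376) and Mrpl17 (691, others 856 to 915). For Tomm7 it was the highest (766, others 630 to 667). With EE at 28 h Mrpl27 read 337 on array 59 (nearest 302). In controls Mrpl17 read 581 on array 28 at 8 h (nearest 524), and Tomm70 read 227 on array 78 at 72 h (nearest 260).

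The EE effect differed between uterus times by a test of the difference itself for 75 of 86 genes, against 81.6% of all genes. It differed between 4 and 8 h for 38 of 87 genes (19.5% of all genes). From 8 to 24 h it did for 44 of 88 (46.2%) and from 24 to 28 h for 6 of 87 (8.25%). In pituitary 1 gene of 88, Timm10, had an effect that differed between times (1.09% of all genes). Uterus and pituitary effects differed for 28 of 87 genes at 4 h (33.8% of all genes) and 47 of 87 at 8 h (47.9%). They differed for 35 of 87 at 24 h (40.1%), 25 of 87 at 48 h (36.3%) and 16 of 86 at 72 h (38.7%). Only the count from 4 to 8 h stood well above the share of all genes.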

How the results depend on the processing

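For genes that met the naming rule, no called difference changed direction under another offset, scaling, filter or fit, or without 1 array. The genes named outside that rule were not checked in this way. Another probe set of the same gene passed in the opposite direction for 7 uterus values, of Mrpl40, Timm22, Timm8a1 and Mrpl52. The counts of genes called in uterus, taken in either direction, stayed within 1.5 times under these settings, except at 2 h. There 6 calls became 2 with the 2 groups alone in the fit. Counts of this kind do not show a shift between rises and falls. In pituitary the 1 gene whose effect differed between times became 0 with an offset of 1, with centred arrays and after quantile normalization. The 1 gene with an effect at any time became 0 after quantile normalization, and 8 h went from 0 to 1 gene when every single-gene probe set was tested. With the replicate block, the tissue difference was called for 22 genes at 4 h, 36 at 8 h, 27 at 24 h, 11 at 48 h and 10 at 72 h. Only 8 of 27 same-number correlations passed 0.1, so the numbers are not shown to pair arrays.

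Without 1 array at a time, uterus calls ranged from 5 to 9 at 2 h, 39 to 47 at 4 h, 66 to 70 at 8 h, 53 to 56 at 24 h, 56 to 60 at 28 h, 46 to 51 at 48 h and 36 to 43 at 72 h. They ranged from 77 to 80 for any time, 74 to 77 for a difference between times and 31 to 39 for controls. Steps ranged from 29 to 43 (4 to 8 h), 40 to 47 (8 to 24 h) and 4 to 7 (24 to 28 h). Pituitary calls ranged from 0 to 4 at 8 h, where 3 of 6 fits called some genes, and were 0 at 4, 24, 48 and 72 h. They ranged from 1 to 3 for any time, and from 0 to 1 for a difference between times (0 in 23 of 30 fits) and for controls. Tissue differences ranged from 24 to 29 at 4 h, 44 to 49 at 8 h, 29 to 39 at 24 h, 20 to 27 at 48 h and 14 to 19 at 72 h. The cause of these shifts was not tested. With 3 pituitary arrays per group and unstated signal over background, small changes of dim genes can be missed.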
